A study of Mus musculus with 46 samples.

Results

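Ovulation begins when luteinizing hormone reaches a mature follicle, and the step examined here lies early in that response, between 1 h and 4 h after the signal. The comparison set 13 mouse follicles collected at 4 h after human chorionic gonadotropin (hCG) against 13 collected at 1 h, which together are 26 of the 46 follicles of the series. They were chosen by the time in their labels, with no measured value used. Each library holds the polyadenylated RNA of 1 ovarian follicle from the outbred mouse stock CD-1. Before stimulation each follicle had grown alone in a well for 8 days, held in alginate, a gel that keeps its round shape. Both groups then received 1.5 IU/ml hCG, a ligand of the luteinizing hormone receptor. The same medium brought 10% serum, recombinant follicle-stimulating hormone at 10 mIU/ml and epidermal growth factor (EGF) at 10 ng/ml. The labels name no follicles kept for 4 h or 1 h in that medium without hCG, so a change belongs to the time after the whole mixture. Nor do they tie any follicle to an animal, and each p-value therefore rests on how follicles, not animals, varied.

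The 4 h group held 10 follicles of batch 1 and 3 of batch 2, and the 1 h group likewise held 10 and 3. In batch 1 the 4 h libraries came from plate 2 and the 1 h libraries from plate 1, so time and plate cannot be told apart there. In batch 2 both times belonged to 1 set of libraries. The authors had adjusted the counts between the batches with ComBat-seq before deposit, according to the name of the table. Levels below are counts scaled to a library of 1000000 (CPM) and are compared between times, not between genes. The libraries did not keep strand, so reads of a gene and of one overlapping it on the opposite strand cannot be told apart. Since each library is a whole follicle, fewer cells of a type and less RNA per cell cannot be told apart.

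As background, the receptor for luteinizing hormone raises cyclic AMP in the granulosa cells of the follicle wall, and within minutes this switches on immediate early genes, most of which encode transcription factors with short-lived messages. Their products and the kinase cascades then induce EGF-like ligands, which carry the signal to the cumulus cells around the oocyte, and the enzymes that make prostaglandins and the hyaluronan matrix of the cumulus. Over hours the granulosa cells stop making estradiol and become luteal cells that make progesterone.

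Library totals were 241442 to 3284746 counts at 4 h (median 1432395) and 302737 to 1212671 at 1 h (median 730895), and libraries had counts for 8964 to 13634 genes at 4 h and 9362 to 12547 at 1 h. In batch 1 the 4 h libraries were deeper, with a mean of 1846989 ± 872622 counts against 707080 ± 304713 at 1 h (SD, n = 10 each, two-sided permutation test adjusted p = 0.00411). The first principal component, with 44.6% of the variance, separated the times, and 1 library at 1 h, replicate 13, stood apart on the second (8.15%), at 73.0 against at most 18.9 in any other. Summed oocyte markers were low, at 5.71 to 210 CPM at 4 h and 7.97 to 336 CPM at 1 h, and none of the 23 passed the filter on low counts. The granulosa gene Inha, which encodes the alpha subunit of inhibin, had 12663 to 37954 CPM at 4 h and 14184 to 33237 CPM at 1 h.

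Between 1 h and 4 h the follicles had less message of most immediate early genes and of aromatase, and more of the cyclooxygenase Ptgs2, the EGF-like ligand Btc and most genes of the cumulus matrix and of ribosome biogenesis. Of 5820 genes tested, 3425 were called at an edgeR adjusted p under 0.05, or 58.8%. Of these, 1797 were higher at 4 h (30.9% of those tested) and 1628 lower (28.0%). At least 2-fold, 809 were higher and 701 lower. At least 8-fold, 74 were higher and 63 lower. The median log2 fold over all tested genes was 0.02. The 4 h and 1 h libraries did not overlap at all for 583 genes (10.0%), 372 with 4 h above (6.39%) and 211 with 4 h below (3.63%). With limma on log2(TPM + 1), which moved the median of all genes to 0.19, the split was 2929 higher and 1710 lower, or 63.1% higher against 52.5% with the counts.

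Immediate early genes fell as a group. Of 22 tested, 18 were lower at 4 h, 2 were higher and 2 were not called, with a median log2 fold of -2.20. In batch 2 alone 15 of 22 were called lower and none higher, where 5.64% of all genes tested were lower and 6.41% higher. Their summed level was 3058 to 6356 CPM at 4 h (median 5307) and 13457 to 46999 CPM at 1 h (median 20210), so no library at 4 h reached the lowest at 1 h.

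Fosb, a Fos-family subunit of the AP-1 transcription factor, had 0 to 2.80 CPM in batch 1 at 4 h (median 0.697) against 132 to 964 CPM at 1 h (median 428). In batch 2 it had 0, 3.39 and 4.46 CPM at 4 h against 179, 256 and 386 CPM at 1 h. The groups lay far apart in both batches, and the log2 fold of 4 h over 1 h was -8.29 ± 0.45 (SE, edgeR adjusted p = 2.3e-14). The orphan nuclear receptors of the NR4A family followed. Nr4a1 had 92.8 to 499 CPM in batch 1 at 4 h (median 174) against 3923 to 12009 CPM at 1 h (median 5839), and in batch 2 it had 125, 168 and 444 CPM at 4 h against 3312, 3980 and 9940 CPM at 1 h. It was 29.5-fold lower at 4 h (log2 -4.88 ± 0.30, edgeR adjusted p = 1.3e-13), with no overlap. Nr4a3 was 164-fold and Nr4a2 120-fold lower.

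Further members fell over a wide range. Atf3, a stress-induced partner of AP-1 proteins, had a log2 fold of -5.87, Jun -3.80 and Fos -3.42. Egr1, a zinc finger factor, had 750 to 1847 CPM in batch 1 at 4 h against 1190 to 4318 CPM at 1 h. In batch 2 it had 572, 594 and 943 CPM at 4 h against 1806, 1928 and 5144 CPM at 1 h. Its groups overlapped in batch 1 and not in batch 2, and its log2 fold was -1.10 ± 0.23 (edgeR adjusted p = 2.2e-04). Ier3, which restrains apoptosis, went the other way with a log2 fold of 2.63 ± 0.32. Egr3, at 0.62 ± 0.23, was the second member called higher and was not called in batch 1 alone (0.46, edgeR adjusted p = 0.114).

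**Figure D1:**
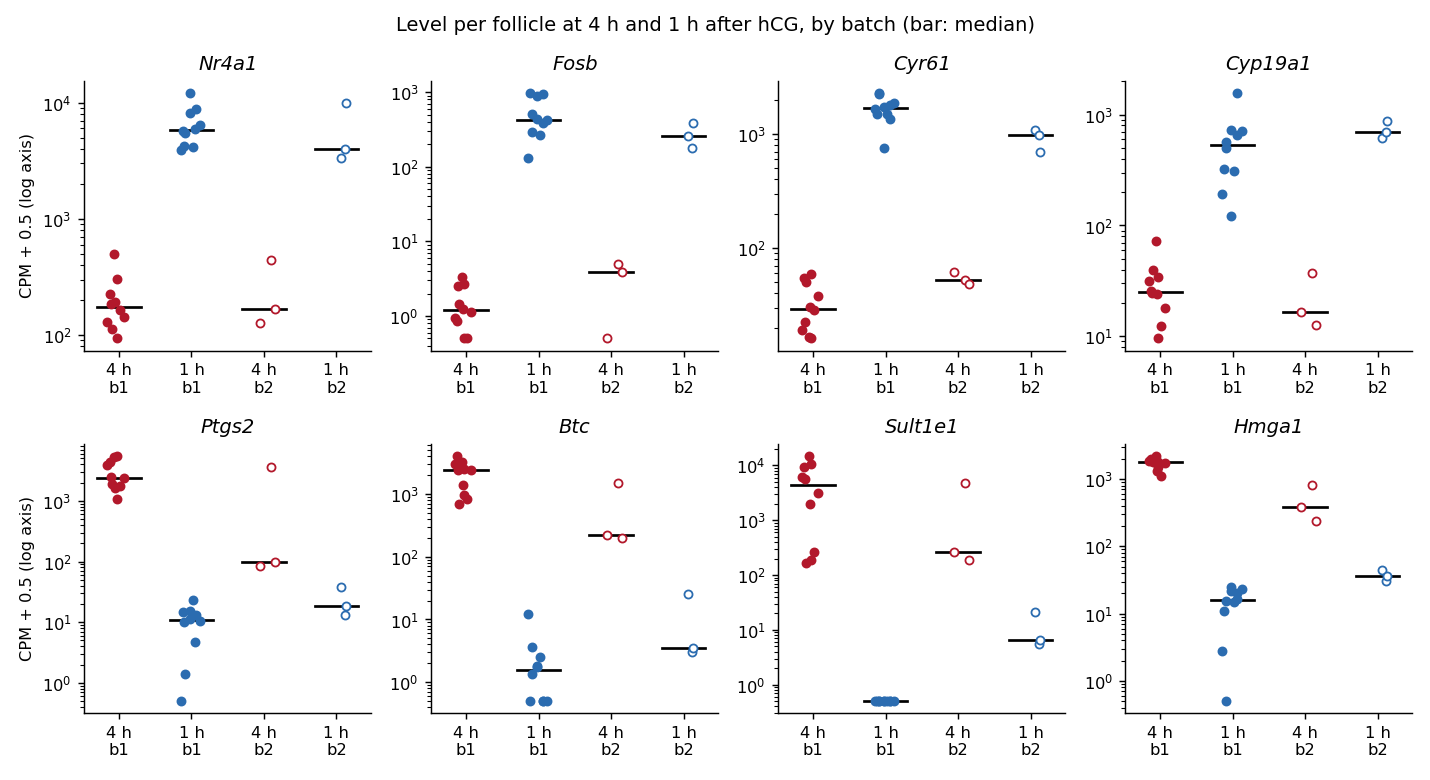
Level of 8 genes in each of the 26 follicles, as CPM plus 0.5 on a log axis, with filled points for batch 1 (b1), open points for batch 2 (b2), red for 4 h, blue for 1 h, and a bar at the median. Nr4a1, Fosb, Cyr61 and Cyp19a1 were lower at 4 h in both batches with no overlap, and 1 of the 3 batch 2 follicles at 4 h stood above the other 2 for Ptgs2, Btc and Sult1e1.

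The genes that damp cyclic AMP and kinase signaling behaved like the immediate early genes, with 8 of 9 tested members lower at 4 h, 1 higher and a median log2 fold of -2.03. In batch 2 alone 6 were lower and none higher. The list shares Nr4a1 with the immediate early genes. Dusp1, a phosphatase that switches off MAP kinases, had a log2 fold of -2.62 ± 0.46 and overlapped between the times, at 4.08 to 20.7 CPM at 4 h and 6.94 to 397 CPM at 1 h in batch 1. Without 1 h replicate 7 its log2 fold was -1.96. Sik1, a kinase that restrains the coactivators of CREB, had -2.43 and Crem, whose short form represses cyclic AMP targets, -1.67. Pde4b, which degrades cyclic AMP, was the member called higher (1.21 ± 0.43, edgeR adjusted p = 0.0165), with overlap.

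Promoters of genes from both directions are printed here because the cyclic AMP response element and the AP-1 site are the elements bound by CREB and by the Fos and Jun proteins whose messages changed. They are from RefSeq on GRCm38.p6 and run 5′ to 3′ on the strand of the gene up to the base before the annotated start, or, for Tnfaip6, before the earlier start in GENCODE M21. Capitals mark the full element TGACGTCA, its part TGACG and the AP-1 site TGANTCA on either strand, and each full element holds the part on both strands. Nr4a1 and Dusp8, a phosphatase of stress-activated kinases, were lower at 4 h, and Areg, the EGF-like ligand amphiregulin, and Tnfaip6, which links hyaluronan in the cumulus matrix, were higher.
Nr4a1 (chr15:101266596-101266845, plus strand): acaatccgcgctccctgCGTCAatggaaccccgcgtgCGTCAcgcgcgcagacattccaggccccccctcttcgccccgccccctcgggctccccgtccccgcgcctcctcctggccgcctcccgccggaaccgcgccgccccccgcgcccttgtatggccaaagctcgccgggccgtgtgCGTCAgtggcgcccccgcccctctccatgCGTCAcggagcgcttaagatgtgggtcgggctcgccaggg
Dusp8 (chr7:142095285-142095534, minus strand): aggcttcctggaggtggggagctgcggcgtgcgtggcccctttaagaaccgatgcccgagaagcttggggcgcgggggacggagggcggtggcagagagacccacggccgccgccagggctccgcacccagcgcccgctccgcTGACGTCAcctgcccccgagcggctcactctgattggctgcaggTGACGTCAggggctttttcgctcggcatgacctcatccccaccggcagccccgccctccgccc
Areg (chr5:91139349-91139598, plus strand): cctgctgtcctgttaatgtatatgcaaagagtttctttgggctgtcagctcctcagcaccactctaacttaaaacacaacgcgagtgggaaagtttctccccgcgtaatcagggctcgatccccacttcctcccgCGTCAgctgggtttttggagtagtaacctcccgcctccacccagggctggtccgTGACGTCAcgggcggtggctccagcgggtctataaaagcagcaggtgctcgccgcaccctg
Tnfaip6 (chr2:52037863-52038008, plus strand): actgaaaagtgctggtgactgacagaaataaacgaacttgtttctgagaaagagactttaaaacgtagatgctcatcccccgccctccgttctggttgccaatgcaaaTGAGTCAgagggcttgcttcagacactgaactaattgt
The Nr4a1 window held 4 matches to the part and the Dusp8 window 2 full elements. The Areg window held 1 full element and Tnfaip6 an AP-1 site.

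Across promoters of 300 bases, 250 before and 50 after the start, the full element stood in 2.08% of the 1393 promoters of genes called higher, 5.02% of the 1256 of genes called lower and 3.73% of the 4370 of all genes tested. It stood in 1 of 17 promoters of tested immediate early genes. Its part stood in 11 of those 17 (64.7%) and 5 of 7 of the cyclic AMP feedback genes (71.4%), against 35.9% of all tested. Among genes at least 4-fold lower the part stood in 30.5%, and among those at least 4-fold higher in 27.4%. The AP-1 site stood in 9.59% of promoters of genes at least 4-fold higher, 3.97% of those at least 4-fold lower and 4.58% of all tested. Over all genes called higher it stood in 5.03%, over all called lower in 4.62%, and in none of the 17 immediate early promoters. The kappa B site stood in 35.3% of the immediate early promoters and 10.3% of all tested. The CArG box stood in 1 of 17 immediate early promoters and 1.44% of all tested, and the NR4A site AAAGGTCA in none of the 17 and 0.572% of all tested. These are counts of letters on either strand, with no test.

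The cumulus matrix genes rose. Of 10 tested, 8 were higher at 4 h and 2 lower, with a median log2 fold of 4.11. The list includes Ptgs2, which is also counted among the prostaglandin genes. In batch 2 alone, 5 of 11 tested were higher and none lower. Their summed level was 3365 to 15116 CPM at 4 h (median 9013) against 862 to 1855 CPM at 1 h (median 1198). Ptgs2, the inducible cyclooxygenase that starts prostaglandin synthesis, had 1083 to 5496 CPM in batch 1 at 4 h (median 2425) against 0 to 22.6 CPM at 1 h (median 10.5). In batch 2 it had 82.9, 96.3 and 3687 CPM at 4 h against 12.5, 17.8 and 38.1 CPM at 1 h. The groups did not overlap, and 2 of the 3 batch 2 follicles at 4 h lay below every batch 1 follicle at that time. The log2 fold was 7.65 ± 0.63 (edgeR adjusted p = 4.3e-11).

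Has2, which makes hyaluronan, had 83.6 to 402 CPM in batch 1 at 4 h (median 206) against 0 to 14.2 CPM at 1 h (median 5.93). In batch 2 it had 72.6, 111 and 117 CPM at 4 h against 0, 14.9 and 21.0 CPM at 1 h, again with no overlap (log2 4.62 ± 0.39, edgeR adjusted p = 6.2e-11). Tnfaip6 had a log2 fold of 6.18 ± 0.74, and the groups overlapped because a batch 2 follicle at 4 h had 39.7 CPM while the highest at 1 h had 42.0 CPM. Cd44, a hyaluronan receptor, had a log2 fold of 5.02. Ugdh, which makes the sugar nucleotide precursor, had 3.69, and the matrix proteoglycan Vcan had 3.02. Itih5, an inter-alpha-trypsin inhibitor heavy chain, fell (-2.19 ± 0.30), and Hmmr, another hyaluronan receptor, was at the threshold (-0.81 ± 0.35, edgeR adjusted p = 0.0495) and lost its call without any of 17 single libraries. Ptx3, the pentraxin that cross-links the matrix, was below the filter, with 1070 counts over the 4 h libraries and 8 over the 1 h libraries. In a fit with no filter its log2 fold was 5.49 ± 0.59 (edgeR adjusted p = 7.3e-10).

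Of 5 prostaglandin genes tested, 3 were higher and 2 lower. Pla2g4a, the phospholipase that frees arachidonic acid, had 84.0 to 251 CPM in batch 1 at 4 h against 6.16 to 18.7 CPM at 1 h. The batch 2 follicles had 48.7, 95.6 and 330 CPM at 4 h against 2.49, 6.57 and 23.8 CPM at 1 h. It did not overlap and was 14.5-fold higher (log2 3.86 ± 0.30, edgeR adjusted p = 1.3e-11). Ptges, a synthase of prostaglandin E2, fell (-2.41 ± 0.19), with 11.9 to 34.3 CPM at 4 h in batch 1 against 95.9 to 210 CPM at 1 h. Hpgd, which breaks prostaglandins down, fell as well (-4.02 ± 0.37).

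Among the EGF-like ligands and ERK feedback genes 5 of 10 were higher, 1 lower and 4 not called, with a median log2 fold of 0.82. Btc, which encodes betacellulin, had 699 to 4023 CPM in batch 1 at 4 h (median 2409) against 0 to 11.6 CPM at 1 h (median 1.05). Follicles of batch 2 had 196, 220 and 1504 CPM at 4 h against 2.49, 2.97 and 25.0 CPM at 1 h. The groups did not overlap (log2 8.73 ± 0.66, edgeR adjusted p = 7.8e-12), and without 1 h replicate 11 the log2 fold was 10.04. Areg had 28.1 to 1973 CPM in batch 1 at 4 h (median 412) against 0 to 41.6 CPM at 1 h (median 8.03). Its batch 2 levels were 15.3, 15.6 and 116 CPM at 4 h against 35.5, 39.9 and 62.4 CPM at 1 h, so only 1 of 3 follicles at 4 h exceeded those at 1 h. Areg was called in the joint fit (4.27 ± 0.79, edgeR adjusted p = 3.7e-05) but not with a term for the 3 library sets (0.14, edgeR adjusted p = 0.953). Ereg, which encodes epiregulin, had 4.61 ± 0.66 jointly and 1.81 with that term (edgeR adjusted p = 0.206). The receptor genes Egfr (0.21) and Erbb2 (0.28) were not called, and the feedback inhibitors Spry2 (2.58) and Dusp6 (1.36) were higher.

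**Figure D2:**
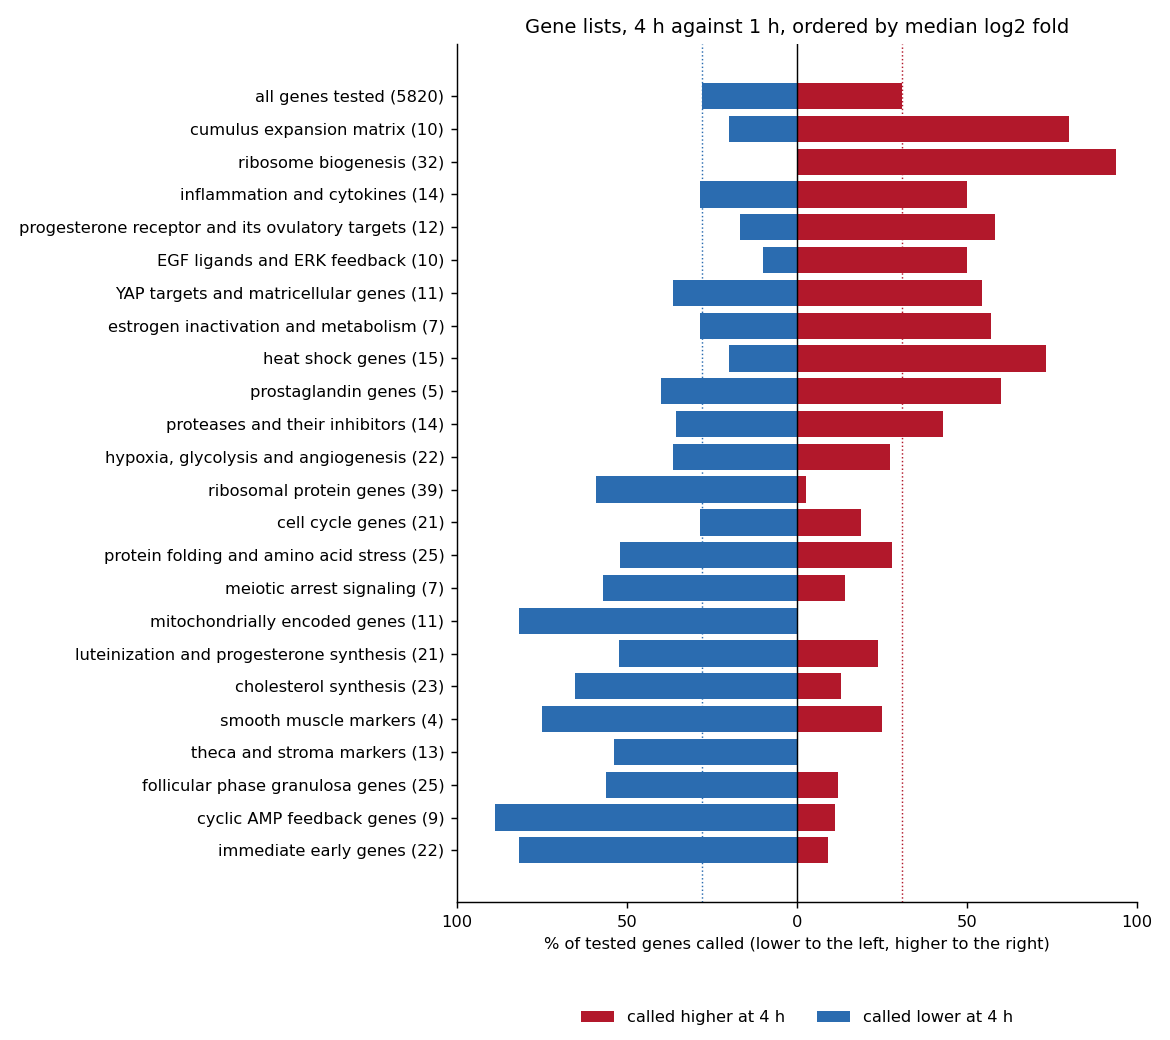
Percent of the tested members of each gene list called higher (red, to the right) or lower (blue, to the left) at 4 h against 1 h, with the number tested in brackets, lists ordered by median log2 fold from the top, and all 5820 genes in the first row with dotted lines. Immediate early genes reach 81.8% lower and ribosome biogenesis 93.8% higher.

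Of 12 tested genes of the progesterone receptor and its ovulatory targets, 7 were higher, 2 lower and 3 not called. Pgr, the receptor itself, was below the filter with 2563 counts over the 4 h and 23 over the 1 h libraries. In the fit with no filter its log2 fold was 5.32 ± 0.64 (edgeR adjusted p = 1.0e-08). In batch 2 Pgr had 10.9, 13.5 and 143 CPM at 4 h against 5.25, 7.47 and 20.8 CPM at 1 h, so those groups overlapped. Runx1, a transcription factor, had 118 to 650 CPM in batch 1 at 4 h against 0 to 10.5 CPM at 1 h, and in batch 2 it had 130, 157 and 304 CPM at 4 h against 5.94, 13.1 and 14.9 CPM at 1 h. Its groups did not overlap (5.33 ± 0.35, edgeR adjusted p = 4.3e-13). Abhd2, a progesterone-responsive lipase, had a log2 fold of 4.55. Epas1, which encodes the hypoxia factor HIF-2 alpha, fell (-3.29 ± 0.24). Adamts1, a protease that cleaves versican, fell as well (-1.30 ± 0.34, edgeR adjusted p = 0.00173). It had 123, 159 and 317 CPM at 4 h in batch 2 against 1375, 1691 and 2406 CPM at 1 h, and 278 to 971 CPM at 4 h in batch 1 against 204 to 2084 CPM at 1 h.

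Of 14 proteases and inhibitors, 6 were higher (42.9%) and 5 lower (35.7%), against 30.9% and 28.0% of all genes tested. Serpinb2, an inhibitor of plasminogen activators, had 24.8 to 370 CPM in batch 1 at 4 h against 0 to 5.67 CPM at 1 h. For batch 2 the levels were 73.9, 83.4 and 420 CPM at 4 h against 0 counts in all 3 libraries at 1 h, which makes it at least 84.8-fold higher there (against 3 counts over the group). Its joint log2 fold was 7.99 ± 0.66, and 9.58 without 1 h replicate 4, the batch 1 library with the highest level at that time. Timp1, an inhibitor of matrix metalloproteinases, had 51.3 to 406 CPM in batch 1 at 4 h against 3.19 to 17.3 CPM at 1 h (4.10 ± 0.36), with no overlap. Among 14 tested genes of inflammation 7 were higher (50.0%) and 4 lower (28.6%). The interleukin receptor Il1r1 (3.33 ± 0.22) did not overlap between the times and was called in each batch. The adhesion molecule Vcam1 (3.04 ± 0.45) was called in batch 1 and not in batch 2 alone (1.35, edgeR adjusted p = 0.393). Within batch 2, 1 of 16 was higher and 4 lower, with a median of -0.71 against 1.37 for the 16 tested in batch 1. In the joint fit the inhibitors Tnfaip3 (-1.96), Nfkbiz (-1.17) and Nfkbia (-0.71) and the NF-kappa B subunit Rel (-1.54) were lower. The subunits Relb (0.97) and Nfkb2 (0.88) were higher, and Nfkb1 (0.67) was not called.

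Genes of the growing follicle fell. Of 25 follicular phase granulosa genes tested, 14 were lower, 3 higher and 8 not called, with a median log2 fold of -1.41. Among batch 2 follicles alone, 12 of 24 were lower and 1 higher. Cyp19a1, the aromatase that makes estradiol, had 9.06 to 72.1 CPM in batch 1 at 4 h (median 24.5) against 122 to 1559 CPM at 1 h (median 536). The batch 2 follicles had 12.2, 16.2 and 36.9 CPM at 4 h against 615, 692 and 870 CPM at 1 h. It did not overlap and was 21.8-fold lower (log2 -4.45 ± 0.36, edgeR adjusted p = 2.6e-11).

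Inhbb, the beta-B subunit of inhibin and activin, had 2.70, 2.71 and 3.82 CPM in batch 2 at 4 h against 340, 369 and 472 CPM at 1 h. In batch 1 it had 0 to 14.9 CPM at 4 h against 2.66 to 516 CPM at 1 h, with overlap because of 1 low library at 1 h (log2 -5.59 ± 0.47, edgeR adjusted p = 5.1e-11). Fshr, the receptor for follicle-stimulating hormone, fell 8.66-fold with no overlap, at 3.98 to 14.3 CPM in batch 1 at 4 h against 34.9 to 113 CPM at 1 h. The receptors Lhcgr (-2.55), Esr2 (-2.42) and Amhr2 (-2.54) and the regulators Foxo1 (-2.78), Gata4 (-2.73) and Nr5a2 (-2.77) were lower. The other inhibin subunits Inha (-0.17 ± 0.17, edgeR adjusted p = 0.410) and Inhba (-0.40 ± 0.38, edgeR adjusted p = 0.378) were not called. Igf1 (1.41), Igf1r (1.33) and Bex1 (1.15) were the members called higher.

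Of 7 genes of estrogen inactivation and metabolism tested, 4 were higher, 2 lower and 1 not called. Among batch 2 follicles alone, 1 was higher and 2 lower, with a median of -0.65. Sult1e1 (chr5:87575969-87591594, minus strand, GRCm38), the sulfotransferase that inactivates estrogens, was among the largest rises, with 164 to 14859 CPM in batch 1 at 4 h (median 4375) and 0 counts in all 10 libraries at 1 h. That makes it at least 11608-fold higher in that batch, against 3 counts over the 1 h group. Follicles of batch 2 had 186, 263 and 4698 CPM at 4 h against 4.98, 5.94 and 21.0 CPM at 1 h (7.15 ± 1.49, edgeR adjusted p = 0.0205). Its joint log2 fold was 10.75 ± 1.06 and, without 1 h replicate 11, 12.73. Follicles at 4 h spread widely for this gene, and 3 of the 10 in batch 1 had only 164, 186 and 267 CPM. Hsd17b1, which converts estrone to estradiol, fell (-3.82 ± 0.39), at 3.98 to 123 CPM at 4 h in batch 1 against 98.2 to 1433 CPM at 1 h. Hsd11b2, which inactivates glucocorticoids, fell with no overlap (-4.13 ± 0.28). Hsd17b12, another 17-beta-hydroxysteroid dehydrogenase, rose with no overlap (1.39 ± 0.14).

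Of 21 genes of luteinization and progesterone synthesis tested, 5 were higher, 11 lower and 5 not called, with a median of -0.60. That median was -0.12 with limma on log2(TPM + 1) and 0.05 on log2(TPM + 0.1). Batch 2 alone had none higher and 5 lower, and the fit with the library-set term 1 higher and 7 lower. Star, which moves cholesterol into mitochondria, had 289 to 2865 CPM in batch 1 at 4 h (median 1128) against 36.6 to 844 CPM at 1 h (median 348). Its batch 2 levels were 220, 272 and 982 CPM at 4 h against 573, 618 and 828 CPM at 1 h. It was called in the joint fit (1.35 ± 0.47, edgeR adjusted p = 0.0161), and in batch 2 alone its log2 fold was -0.43 (edgeR adjusted p = 0.644). Cyp11a1, the side-chain cleavage enzyme, was not called (0.82 ± 0.46, edgeR adjusted p = 0.128). Scarb1, the receptor for high-density lipoprotein, was higher (1.68), and the nuclear receptor genes Nr5a1 (-1.91) and Nr5a2 were lower, as was the 3-beta-hydroxysteroid dehydrogenase gene Hsd3b1 (-1.19). Cholesterol synthesis genes fell, 15 of 23 against 3 higher (median -0.62), and in batch 2 alone 9 of 24 fell and none rose. They include Fdft1 (-1.81 ± 0.20), which makes squalene. Abca1, a cholesterol exporter, was higher (1.29 ± 0.32).

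Of 13 markers of the theca and stroma tested, 7 were lower and none higher in the joint fit (median -1.04). None was called in batch 2 alone (median -0.72) and 1, lower, with the library-set term, so the calls rest on batch 1, where time and plate cannot be told apart. The step was called different between the batches for 0 of the 13, against 5.09% of all genes tested. The list was led by Aldh1a1 (-2.68 ± 0.51). The summed level of the 22 markers was 276 to 3362 CPM at 4 h and 612 to 5221 CPM at 1 h. In batch 1 it averaged 1114 ± 1089 CPM at 4 h and 2421 ± 1460 CPM at 1 h (SD, n = 10 each, permutation test adjusted p = 0.0641). In batch 2 it averaged 1219 ± 637 CPM at 4 h and 2254 ± 765 CPM at 1 h (SD, n = 3 each, exact permutation p = 0.200, with 0.1 the smallest possible). Of 4 smooth muscle markers, 3 were lower and 1 higher. The only endothelial marker tested, Cdh5, and the only leukocyte marker tested, Lyz2, were lower. Cdh5 had a log2 fold of -1.53 (edgeR adjusted p = 0.0111), and -0.09 with a term for the library sets. Lyz2 had -1.82 (edgeR adjusted p = 0.0482) and was not called with DESeq2 (-1.54). The smooth muscle gene called higher, Tagln (1.14), was not called without 1 h replicate 7, 1 h replicate 11 or 4 h replicate 10. The part of these cells in the results for Lhcgr, cholesterol synthesis or luteal genes was not tested.

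Ribosome biogenesis was the list with the largest share of risers, with 30 of 32 tested members higher, none lower and a median log2 fold of 1.51. Within batch 2, 14 of 33 were higher and none lower, with a median of 1.65. The summed level of the 35 genes was 4713 to 7333 CPM at 4 h against 1866 to 2659 CPM at 1 h, with no overlap. Nop2, a methyltransferase of ribosomal RNA, had 51.8 to 109 CPM in batch 1 at 4 h against 2.44 to 20.5 CPM at 1 h. For batch 2 the levels were 45.2, 74.6 and 82.0 CPM at 4 h against 8.91, 12.5 and 14.4 CPM at 1 h, with no overlap (2.88 ± 0.21, edgeR adjusted p = 4.1e-12). Ncl (1.68), Npm1 (1.18) and Fbl (1.01), which encode abundant nucleolar proteins, were higher. For the ribosomal proteins themselves, the step differed between the batches for 2 of the 39 tested, against 5.09% of all genes tested. Of 39 tested, 23 were lower and 1 higher jointly (median -0.31), 24 lower in batch 1 alone (28.5% of all genes there), and 1 lower in batch 2 alone, where the median was -0.02. With limma on TPM 14 were lower and 3 higher (median -0.16, against 0.19 for all genes).

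Of 15 heat shock genes 11 were higher, 3 lower and 1 not called, and in batch 2 alone 2 were higher and 2 lower. The list was led by Hsph1, a nucleotide exchange factor of HSP70 (2.55 ± 0.27), and Hsf1, the factor that drives the heat shock response (1.18 ± 0.13), with no overlap for either. The cochaperones Dnajb4 (-4.08 ± 0.23) and Dnajb1 (-1.32 ± 0.25) fell. Of 25 genes of protein folding in the endoplasmic reticulum and amino acid stress, 7 were higher and 13 lower (median -0.37). Batch 2 alone had 3 higher and 3 lower (median -0.09), and the fit with the library-set term 5 higher and 4 lower. With limma on log2(TPM + 0.1) 9 were higher and 6 lower (median -0.03). The 7 make, import or regulate amino acids and one-carbon units. They include Asns, asparagine synthetase (2.15 ± 0.27), and Psat1 of serine synthesis (1.87 ± 0.27). The 13 lower ones include Herpud1, a component of degradation from the endoplasmic reticulum. It had 10.4 to 32.8 CPM in batch 1 at 4 h against 253 to 703 CPM at 1 h, and in batch 2 it had 14.4, 25.5 and 56.3 CPM at 4 h against 234, 265 and 279 CPM at 1 h. Its groups did not overlap (-4.06 ± 0.24, edgeR adjusted p = 8.3e-14). Ppp1r15a, which reverses the translation block of that stress response, was 11.3-fold lower.

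YAP is a coactivator that responds to cell shape. In the list of YAP targets and matricellular genes, 6 of 11 tested were higher and 4 lower. The 11 are not all targets, as they include Yap1 itself (0.56, not called) and the pathway genes Tead1 (2.04) and Wwtr1 (1.01), both higher. Cyr61, a secreted matricellular protein, had 15.6 to 58.4 CPM in batch 1 at 4 h (median 28.7) against 753 to 2282 CPM at 1 h (median 1698). The batch 2 follicles had 47.5, 51.6 and 61.3 CPM at 4 h against 701, 976 and 1089 CPM at 1 h (log2 -5.29 ± 0.28, edgeR adjusted p = 1.0e-14), with no overlap. Its relative Ctgf was higher (1.16) and Amotl2, which restrains YAP, lower (-3.28 ± 0.22). Of 22 genes of hypoxia, glycolysis and angiogenesis, 6 were higher (27.3%) and 8 lower (36.4%), against 30.9% and 28.0% of all genes tested. Hk2, a hexokinase, was higher (3.05 ± 0.38), and the vessel-destabilizing ligand Angpt2 lower, with 19.9 to 64.5 CPM in batch 1 at 4 h against 232 to 898 CPM at 1 h (-3.69 ± 0.30). Of 21 cell cycle genes 4 were higher (19.0%) and 6 lower (28.6%). Of 7 genes of meiotic arrest, Nppc, the granulosa ligand that holds the oocyte in arrest (-1.62 ± 0.36), and its receptor Npr2 (-1.62 ± 0.19) were among 4 lower, and Hprt was higher (0.57).

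Further large rises came from outside these lists. Hmga1, an architectural chromatin protein, had 1115 to 2202 CPM in batch 1 at 4 h (median 1772) against 0 to 24.4 CPM at 1 h (median 15.5). Follicles of batch 2 had 237, 389 and 815 CPM at 4 h against 29.9, 35.6 and 43.3 CPM at 1 h. The groups did not overlap (6.08 ± 0.40, edgeR adjusted p = 4.6e-13). The ligand Wnt2 had 967 counts over the 4 h libraries and 2 over the 1 h libraries, a ratio of 174 at equal depth (95% exact binomial interval 47.9 to 1436, counting error only). The fitted log2 fold of Wnt2 was 6.92 ± 0.62, and 8.66 without 1 h replicate 6. Ifi202b (6.81), an interferon-inducible gene, and Msc (6.59), a transcriptional repressor also known as musculin, rose, as did the metalloreductase Steap1 (6.01). Without 1 h replicate 11, Msc had 8.04 and Steap1 6.71. The Notch ligand Jag1 had 5.64 ± 0.53, Alcam, a cell adhesion molecule, 5.33, Fam110c 5.30 and Pxdc1 5.25. Further large falls were Adck3 (-5.71, and -6.30 without 4 h replicate 12), a kinase-like protein of coenzyme Q synthesis, and Ell2 (-5.35), an elongation factor of RNA polymerase II. Cbs (-5.05), the first enzyme of transsulfuration, Cyp2s1 (-4.83), a cytochrome P450, Rasd1 (-4.37), a dexamethasone-induced small GTPase, and Dhrs3 (-4.31), a retinal reductase, also fell. Cyp2s1 and Rasd1 overlapped between the times, and the other genes of this paragraph did not.

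The batches were then set against each other. In batch 1 alone 3545 of 6044 genes were called (58.7%), 1823 higher (30.2%) and 1722 lower (28.5%). Among batch 2 follicles alone, with 3 follicles against 3, 701 of 5817 were called (12.1%), 373 higher and 328 lower. With a term for the 3 library sets, so that the step rests on batch 2 with the spread of all 26 libraries, 1546 of 5820 were called (26.6%), 899 higher and 647 lower. Of 604 genes called in both batches alone, which are 17.0% of the calls of batch 1 and 86.2% of those of batch 2, 598 had the same sign. The other 6 had opposite signs, and Nfkb1 was among them. Of the lists whose batch 2 counts are not given above, the EGF ligands and ERK feedback genes had 2 higher and 1 lower of 10 there, and the prostaglandin genes 2 and 1 of 4. The progesterone receptor list had 2 higher and 2 lower of 14, the proteases 2 and 1 of 15, and the YAP list 1 and 2 of 11. The hypoxia list had 2 higher and 6 lower of 23, the cell cycle genes 0 and 1 of 21, and the meiotic arrest genes 0 and 2 of 7. The count of calls in batch 2 depended on single follicles, at 264 without 1 h replicate 12, 310 without 1 h replicate 11, 322 without 4 h replicate 12, 366 without 4 h replicate 13 and 374 without 1 h replicate 13. Without 4 h replicate 11 it was 650.

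**Figure D3:**
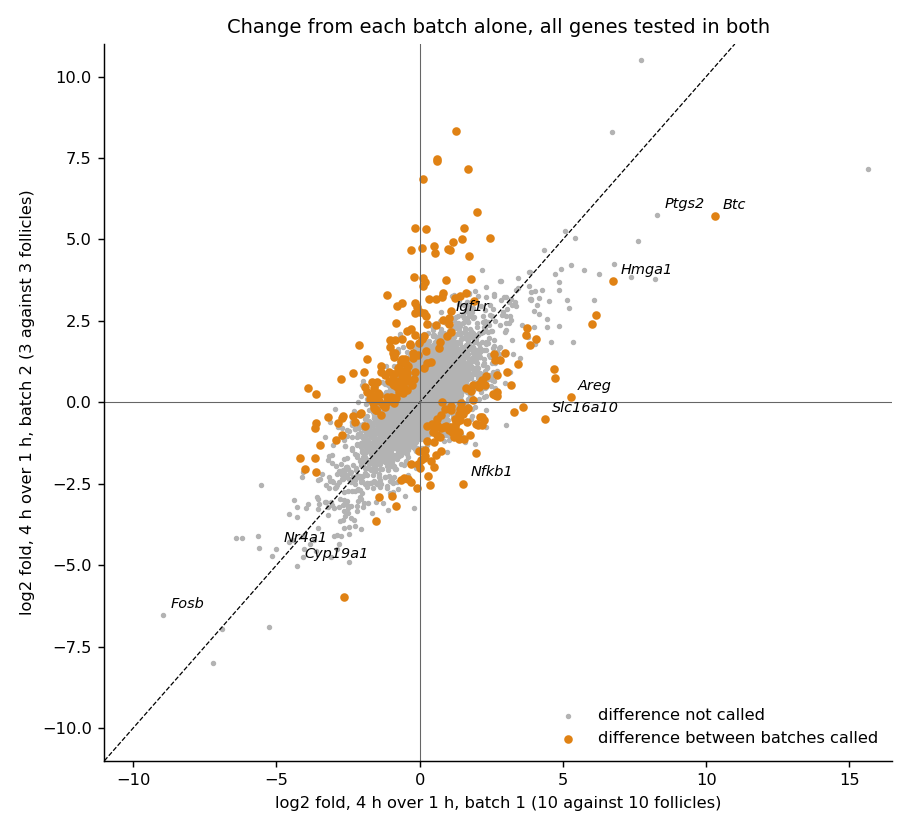
Log2 fold of 4 h over 1 h in batch 1 alone (x axis) and batch 2 alone (y axis) for every gene tested in both, with orange points where the difference between the batches was called and a dashed line of equal change. Fosb, Nr4a1 and Cyp19a1 are low in both batches, Btc and Hmga1 lie below the line, and Areg and Slc16a10 lie near 0 on the batch 2 axis.

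The step itself differed between the batches for 296 of 5820 genes (5.09%) in a test of the interaction of time and batch. It was more positive in batch 2 for 186 (3.20%) and more negative for 110 (1.89%). Of the 278 of these tested in each batch alone, 156 had opposite signs, 62 changed more in batch 2 and 60 less. Hmga1, Btc, Fam110c, Ier3 and Il1r1 had smaller positive folds in batch 2, with differences in log2 fold (batch 2 minus batch 1) of -3.06, -4.60, -3.51, -2.66 and -1.69. Ier3 was not called in batch 2 alone (0.54, edgeR adjusted p = 0.273). The Btc difference was -2.47 without 1 h replicate 11 (edgeR adjusted p = 0.579) and -6.27 without 4 h replicate 11. Areg differed by -5.16 (edgeR adjusted p = 0.0233), which was not called without 1 h replicate 13 (-4.90, edgeR adjusted p = 0.0514), 4 h replicate 12 (-4.73, edgeR adjusted p = 0.0870) or 4 h replicate 13 (-4.75, edgeR adjusted p = 0.0797). Without 4 h replicate 11 it was -6.84. The log2 fold of Areg was 5.28 in batch 1 and 0.16 in batch 2.

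Nfkb1, which encodes the p105 precursor of NF-kappa B, had 3.98 to 42.0 CPM in batch 1 at 4 h (median 18.7) against 0 to 18.3 CPM at 1 h (median 5.28). Its batch 2 levels were 3.61, 4.46 and 4.75 CPM at 4 h against 19.9, 23.8 and 30.2 CPM at 1 h. It rose in batch 1 (1.53, edgeR adjusted p = 5.2e-04), fell in batch 2 (-2.49, edgeR adjusted p = 0.0134) and was not called jointly (0.67, edgeR adjusted p = 0.174), though it was without 1 h replicate 11 (0.93). The amino acid transporter Slc16a10 had 94.1 to 479 CPM in batch 1 at 4 h against 1.42 to 22.3 CPM at 1 h. For batch 2 the levels were 11.5, 29.8 and 33.4 CPM at 4 h against 23.8, 37.4 and 43.3 CPM at 1 h, a difference of -4.91 (edgeR adjusted p = 4.2e-04). The ephrin receptor Epha4 differed by -5.34, with 2.70, 3.39 and 28.7 CPM at 4 h in batch 2 against 11.8, 11.9 and 12.5 CPM at 1 h, and by -7.30 without 4 h replicate 11.

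The largest positive differences came from genes with no counts in batch 2 at 1 h. Tagap1, Galnt1, Tstd2 and Tmem68 had 0 counts in all 3 of those libraries, and were at least 22.4-fold, 11.3-fold, 10.8-fold and 7.34-fold higher at 4 h there, against 3 counts over the group. The 0 h follicles, also of batch 2, had medians of 30.4, 12.4, 24.0 and 22.5 CPM, scaled over all 46 libraries. At 4 h in batch 2 the medians on that scale were 46.6, 18.5, 21.1 and 12.1 CPM, so the level was lowest at 1 h. Tmem68 had 12.1, 12.2 and 21.6 CPM in batch 2 at 4 h, and in batch 1 it had 7.97 to 15.4 CPM at 4 h against 6.16 to 18.4 CPM at 1 h. Tmem68 was not called jointly (0.58, edgeR adjusted p = 0.0996), though it was without 1 h replicate 4 (0.74). Of the 5820 genes tested, 7 had 0 counts in those 3 libraries, and 5 of the 7 were among the 296. Zkscan1, a zinc finger gene, had 189 counts over the batch 2 libraries at 4 h and 2 over those at 1 h, a ratio of 34.1 at equal depth (95% exact binomial interval 9.31 to 284). In batch 1 it had 2.85 to 104 CPM at 4 h against 8.62 to 83.7 CPM at 1 h. Its difference of 5.95 (edgeR adjusted p = 0.0494) was not called without 1 h replicate 11, 12 or 13 or without 4 h replicate 11 or 12.

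**Figure D4:**
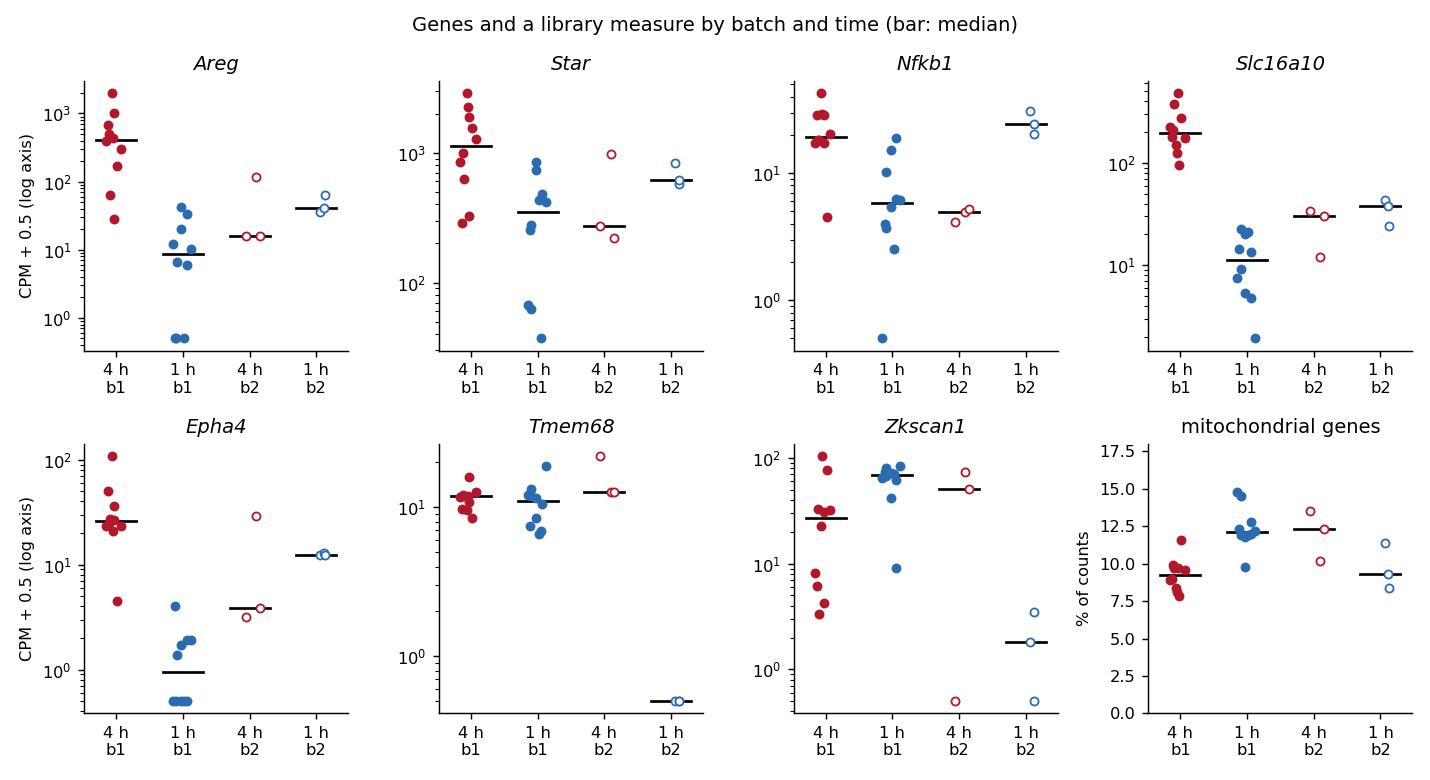
Level of 7 genes whose 4 h or 1 h values differ by batch, as CPM plus 0.5 on a log axis, and the percent of counts in mitochondrially encoded genes, in each follicle, with batch 1 (b1) filled, batch 2 (b2) open, red for 4 h, blue for 1 h and a bar at the median. Nfkb1 is higher at 4 h in batch 1 and lower at 4 h in batch 2, and the mitochondrial percentage is lower at 4 h in batch 1 and higher in batch 2.

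Among the 3 batch 2 follicles at 4 h, replicate 11 differed from the other 2. It held the high values of Ptgs2 (3687 CPM), Sult1e1 (4698 CPM), Btc (1504 CPM) and Tnfaip6 (1711 CPM), and replicates 12 and 13 had 96.3 and 82.9 CPM of Ptgs2 and 186 and 263 CPM of Sult1e1. Replicates 12 and 13 also lay at 27.2 and 32.0 on the first component, against 43.3 for replicate 11. Other genes that rose were lowest in replicate 11, among them Serpinb2 (73.9 against 83.4 and 420 CPM) and Timp1 (92.4 against 126 and 207 CPM). Vcam1 was lowest there as well (52.2 against 471 and 1062 CPM). Replicate 11 had 675 CPM of summed theca and stroma markers, against 1063 and 1919 CPM in replicates 12 and 13, and 38009 CPM of summed granulosa markers, against 13086 and 13691 CPM. Nearly all of the granulosa sum was Inha, at 37954 CPM against 13055 and 13648 CPM. Of the other members, Cyp19a1 was highest in replicate 11 (36.9 against 12.2 and 16.2 CPM). Nr5a2 was lowest there (12.1 against 15.6 and 15.3 CPM), and Fshr lay between (5.73 against 0.678 and 9.02 CPM).

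Mitochondrially encoded genes took 9.27% ± 1.08 of the counts at 4 h in batch 1 and 12.4% ± 1.43 at 1 h (SD, n = 10 each, two-sided permutation p = 2e-05, the smallest that 100000 resamples give, adjusted p = 2.2e-04). In batch 2 they took 10.2%, 12.3% and 13.5% at 4 h and 8.38%, 9.30% and 11.4% at 1 h (n = 3 each, exact permutation p = 0.200). In the joint fit 9 of 11 were lower and none higher. Within batch 2, none was called in either direction, and 6 of the 11 differed between the batches. In batch 1 this share moves with the plate as well as with the time, and the 2 cannot be told apart.

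The other times of the series place the step. The 9 follicles at 0 h belong to batch 2 and the 11 at 8 h to plate 1 of batch 1, and levels here are scaled over all 46 libraries. Nr4a1 averaged 17.0 ± 13.5 CPM at 0 h (n = 9), 6417 ± 2785 at 1 h (n = 13), 214 ± 125 at 4 h (n = 13) and 146 ± 325 at 8 h (SD, n = 11). Ptgs2 averaged 0.202 ± 0.341, 13.1 ± 9.91, 2665 ± 1815 and 149 ± 94.8 CPM at the same times, and Hmga1 2.06 ± 2.10, 19.7 ± 11.9, 1458 ± 648 and 927 ± 265 CPM. Inhbb was highest at 0 h, with 971 ± 260, 298 ± 154, 5.55 ± 4.43 and 3.40 ± 1.89 CPM. The means of Ptgs2 and Hmga1 were highest at 4 h, and that of Nr4a1 at 1 h.

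On plate 1 alone, where 8 h and 1 h libraries lie side by side, the log2 fold of 8 h over 1 h was -5.50 ± 0.72 for Nr4a1, -6.35 ± 0.31 for Cyr61 and -4.47 ± 0.44 for Cyp19a1. It was 3.95 ± 0.48 for Ptgs2, 5.84 ± 0.30 for Hmga1 and 7.28 ± 0.39 for Btc. The 4 h over 1 h values of batch 1, across the plates, were -5.00 for Nr4a1, -5.63 for Cyr61, -4.28 for Cyp19a1, 8.29 for Ptgs2, 6.76 for Hmga1 and 10.31 for Btc. Both comparisons share the 10 libraries at 1 h, so they are not independent.

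**Figure D5:**
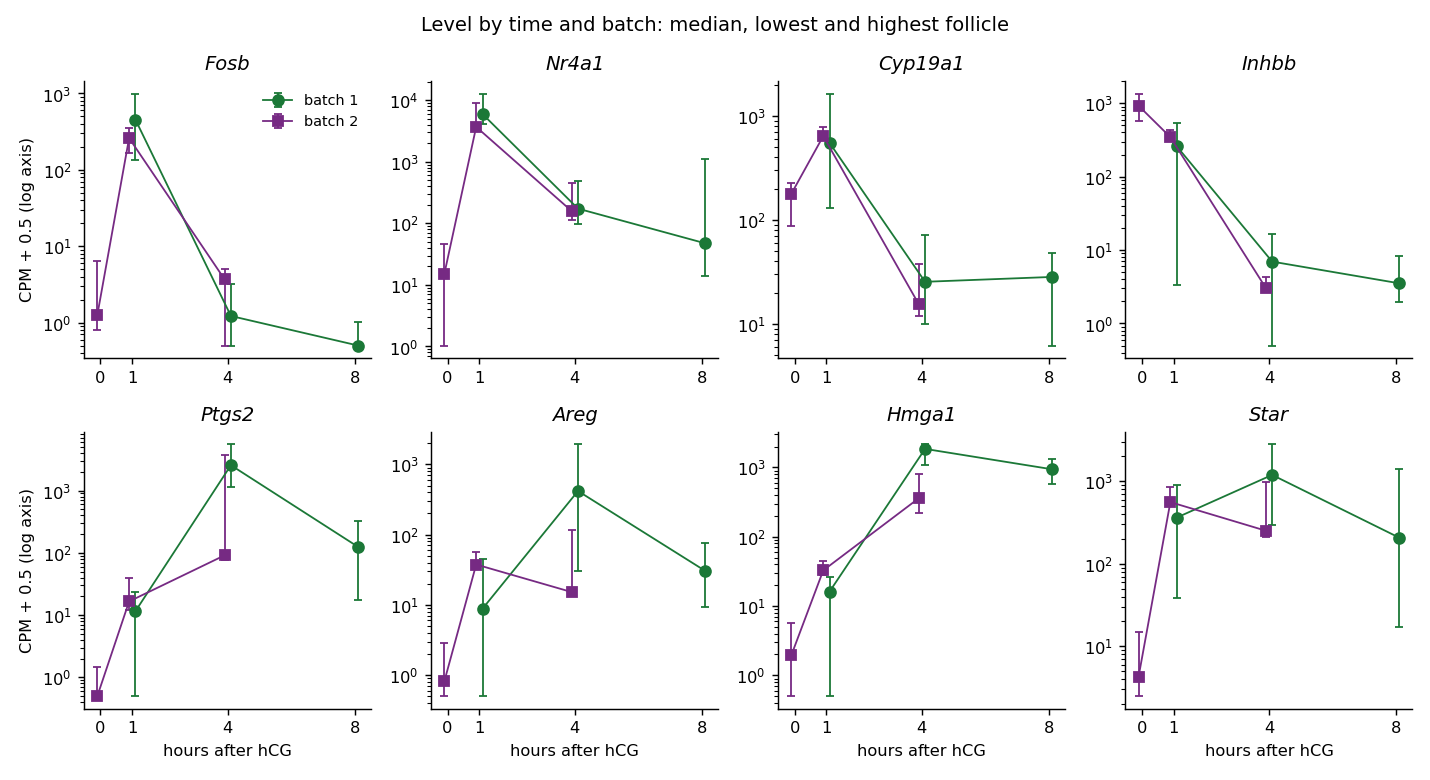
Level of 8 genes by hours after hCG, as CPM plus 0.5 on a log axis, with the median (point) and the lowest and highest follicle (bars) of batch 1 (green circles, 1 h to 8 h) and batch 2 (purple squares, 0 h to 4 h). Fosb and Nr4a1 have their highest median at 1 h in both batches, and Areg and Star have a higher median at 4 h than at 1 h in batch 1 and a lower one in batch 2.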

How the data were processed

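Single follicles were sequenced from polyadenylated RNA, and 26 of the 46 libraries, 13 at 4 h and 13 at 1 h, enter the comparison. The authors deposited whole-number counts for 25147 genes that they had adjusted between the 2 batches with ComBat-seq, per the name of the deposited table. The authors also deposited TPM values for 25122 genes, computed from those adjusted counts per the name of that table. HISAT2, Partek, DESeq2 and the build GRCm38 are named per the submitters' processing notes. Their versions and the ComBat-seq settings are not given in the sources used here. Each table holds 10 columns that match no described sample, and these were not used. The authors' deposited fold changes compare other times with 0 h and were not used.

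The adjusted counts were filtered by expression, scaled with TMM factors and fitted in edgeR 4.0.16 (R 4.3.3) by the quasi-likelihood test with batch as a term, and p-values were adjusted by the Benjamini-Hochberg method over all genes tested. Calls were made where the adjusted p was below 0.05. The biological coefficient of variation was 33.9%. Separate fits covered each batch alone, the interaction of time and batch, and a factor with 3 library sets (both plates of batch 1, and batch 2). Because the counts had been adjusted between batches, their spread may be smaller than in unadjusted counts, which was not tested. Alternatives were DESeq2 1.42.0, limma 3.58.1 on log2(TPM + 1) and log2(TPM + 0.1), other scaling, no filter, counts thinned to 241442 per library, and leaving out each library. For the interaction only batch 2 libraries were left out singly. The fits were tested on simulated data. Intervals on ratios are exact binomial ones and, like the floor of 3 counts, cover counting error only.

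Genes named in the text were the 15 largest rises and 15 largest falls among called genes, if the mean log2 CPM reached 3 and the sign was shared by batch 1 and the library-set fit, up to 2 a direction in each list, the 5 largest differences a direction between batches, and a fixed set of genes. Further list members stand beside them with their folds. The same sign is thus no support for the named genes. The comparison, gene lists and rules were chosen with earlier results of these data known. Some genes stand in several lists, among them Ptgs2, Areg, Ereg, Lhcgr and Nr5a2, so the lists are not independent. Same-numbered follicles of the 2 times were not pairs. Coordinates are from GENCODE M21 (19557 symbols found once), and 25 names in the form of dates were left as deposited.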

Additional observations from a re-analysis of the deposited data

Results flagged for a closer look

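In 10 of 66 groups of batch 1 follicles tested, 1 library lay far from the others. The cut-off flags about 5% of groups when values are independent and normally distributed. Here the same libraries recur across the groups, and Serpinb2 and Btc had few or no counts in most libraries at 1 h. The 10 of 66 can therefore not be set against that 5%. Replicate 10 at 4 h, the library with the fewest counts, had the fewest genes with a count (8964), the highest summed smooth muscle markers (1665 CPM) and endothelial markers (147.0 CPM), and the lowest Inhba (9.92 log2 CPM). Replicate 7 at 4 h had 29.2% of its counts in its 10 largest genes, and replicate 8 at 4 h had the highest surface epithelium markers (56.9 CPM). Replicate 1 at 1 h had the highest endothelial markers (252.0 CPM) and leukocyte markers (345.0 CPM). Among 1 h follicles, replicate 5 stood highest for Btc (3.73 log2 CPM) and replicate 4 for Serpinb2 (2.88 log2 CPM).

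The step of 4 h over 1 h differed between the batches, by a test of the interaction of time and batch, for 22 genes named here. In log2 fold, batch 2 minus batch 1, the negative differences were Epha4 -5.34, Areg -5.16, Slc16a10 -4.91, Btc -4.60, Nfkb1 -4.05, Sfrp4 -4.00, Fam110c -3.51, Hmga1 -3.06, Ier3 -2.66, Adamts1 -2.39, Cdkn1a -1.90 and Il1r1 -1.69. The positive ones were Tagap1 7.39, Galnt1 7.17, Tstd2 7.09, Tmem68 7.04, Zkscan1 5.95, Asns 2.01, mt-Nd3 1.74, Igf1r 1.57, Amotl2 1.45 and Rpl10 1.04. The fitted values of Tagap1, Galnt1, Tstd2 and Tmem68 rest on 0 counts in batch 2 at 1 h and are no bounds.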

How the results depend on the processing

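The count of 3425 changed genes was 5367 with DESeq2 (2524 higher, 2843 lower, 18351 genes tested), 5147 with no filter, 1343 with thinned counts (2166 tested), 1546 with the library-set term and 701 in batch 2 alone. Leaving out 1 library gave 3311 to 3562. Batch 2 alone gave 439 with thinned counts and 264 to 650 with 1 follicle left out. Without a filter 67.0% of its calls were higher. The 296 differences between batches became 468 with DESeq2 and 208 to 390 with 1 batch 2 follicle left out. Batch 1 follicles were not left out of that test singly. Without 1 h replicate 13 and 4 h replicate 10, an alternative chosen after seeing the data, the counts were 3605 and 308. With the replicate number as a block in place of batch 3165 genes were called. Correlations of same-numbered follicles were -0.273 to 0.148 over 13 pairs, and 1 of the 1 h follicles correlated best with its own number, so the numbers were not taken as pairs.

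Signs reversed in batch 2 alone and with the library-set term for Cdkn1a (-0.37 and -0.39), Nfkb1 (-2.49 and -2.52), Slc16a10 (-0.52 and -0.53), Smtn (0.15 and 0.18), Star (-0.43 and -0.45) and mt-Nd3 (0.30 and 0.29), and with that term for Zkscan1 (4.86). Of these, only Nfkb1 in both settings and Zkscan1 with that term (edgeR adjusted p = 0.0388) were called with the reversed sign. The others were called in neither setting. The cause was not tested. Of 113 named genes tested, 78 kept their verdict, called or not, with the library-set term. Another 27 kept direction and lost the call, 1 gained a call, and 7 are those with reversed signs above. Of those 7, Cdkn1a, Slc16a10, Smtn, Star and mt-Nd3 also lost the call. With DESeq2 111 kept their verdict, and Hmmr and Lyz2 lost the call. Of 25147 genes 5820 passed the filter on low counts, and 2166 did so with every library thinned to 241442 counts.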

Other observations

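Genes below the filter on low counts were fitted with no filter. Runx2, a transcription factor related to Runx1, had 425 counts over the 4 h libraries and 7 over the 1 h libraries (log2 4.40 ± 0.47, edgeR adjusted p = 5.6e-10), with no overlap between the times. The cytokine Il6 had 103 counts at 4 h and 10 at 1 h (2.06 ± 0.64, edgeR adjusted p = 0.0118), with overlap. Edn2, which encodes endothelin 2, had 39 counts at 4 h and 24 at 1 h (-0.54 ± 0.54, edgeR adjusted p = 0.502), and Vegfa, which encodes a vascular growth factor, had 75 at 4 h and 43 at 1 h (-0.53 ± 0.38, edgeR adjusted p = 0.321). Neither was called.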
